A study of Mus musculus with 18 samples.

Results

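Mouse embryonic stem cells (ESCs) kept for 7 days in hypoxia were compared with normoxic ESCs over every gene whose expression passed a low minimum. Of the 13578 genes in the ESC expression table, the 12271 genes with more than 0.4 TPM in at least 2 of the 6 ESC libraries were tested. TPM is a normalised expression level per gene, scaled to a fixed sum per library. Genes on either side of this minimum were Scn8a and Tnfsfm13, whose second-highest library held 0.4002 and 0.4004 TPM, and Fam110b and Sult2b1, which held 0.3993 and 0.3996 TPM and were left out.

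The cells were wild-type E14 ESCs, an established line grown without feeders on gelatin in medium with serum and the cytokine LIF, which holds them in a self-renewing state. Normoxic cells were grown at 20% oxygen and hypoxic cells at 2% oxygen, for 2 days (acute) or 7 days (prolonged). Bulk RNA-seq was made from 2 biological replicates of each condition, so that 4 libraries enter this comparison and the 2 libraries of day 2 share the estimate of the spread. The series has 18 samples in all, which include trophoblast stem cells (TSCs) and extra-embryonic endoderm (XEN) cells. All cells of a condition come from 1 line, so the replicates do not sample different lines or embryos. The same normoxic pair served both days, and no normoxic library is labelled with days in culture. The effects of hypoxia and of time in culture therefore cannot be told apart here.

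Cells sense oxygen through prolyl hydroxylases, which mark the HIFα proteins for destruction when oxygen is at hand. In hypoxia the HIFα proteins persist, enter the nucleus with HIF1β and bind DNA at a short core motif near genes of glycolysis, glucose uptake and lactate export. Mouse ESCs stand for the epiblast, the tissue that later forms the primitive streak, where cells switch on T (brachyury), Wnt3 and Fgf8 and become mesoderm and endoderm. Many genes used in the germline are kept silent in ESCs by DNA methylation and by repressor complexes, and several families of them, such as Xlr, Rhox and Mage, sit in clusters of near-identical copies on the X chromosome.

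The depth of the 4 libraries, recovered as whole reads from the TPM, was 37760283 and 50296395 reads in normoxia and 56017126 and 39649656 reads on day 7. The markers of ESCs were present in all libraries, and their summed level lay between 16854.9 and 20027.2 TPM. Pou5f1, which encodes the central pluripotency factor OCT4, had 1983 and 1975 TPM in normoxia and 1887 and 1568 TPM on day 7 (log2 fold change -0.20, SE 0.16, adjusted p = 0.898 from limma). Nanog had 866 and 755 TPM in normoxia and 940 and 1028 TPM on day 7 (log2 fold change 0.28, SE 0.15, adjusted p = 0.741). In Pou5f1 both day 7 libraries lay below both normoxic ones and in Nanog above them, and neither difference passed the test. Over all genes tested, the replicates were 30.16 apart in normoxia, 33.38 on day 7 and 46.1 on day 2 (Euclidean distance on the log2 scale), so the day 2 pair varied most.

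Many more genes were higher than lower on day 7 of hypoxia. Differentially expressed (DE) genes are those with a change of more than 1.5-fold and a Benjamini-Hochberg adjusted p from limma of 0.1 or less. On day 7, 88 genes rose (0.717% of those tested) and 5 fell (0.0407%), 93 in all (0.758%). Both day 7 libraries lay outside the range of the normoxic pair in all 93, as they did in 40.5% of all genes tested, and 986 genes (8.04%) had an unadjusted p under 0.05. Without regard to the test, 718 genes (5.85%) differed by more than 1.5-fold, 567 of them upward (4.62%) and 151 downward (1.23%). These shares over all genes tested are the background for the counts within gene lists given below. Of the 88 higher genes, 13 passed the minimum level only through the day 7 libraries, a route that favours genes that are high on day 7. In 29 of the 93 the normoxic mean was under 1 TPM. Log2 fold changes here are on the scale of log2(TPM + 0.5), which understates the change of such genes. The count depended on the libraries. It was 271 higher and 51 lower without replicate 1 of day 2, 269 and 50 without replicate 2 of day 2, and 269 and 51 with neither, and fell to 10 and 0 without replicate 1 of normoxia, 8 and 0 without replicate 2 of normoxia, 12 and 0 without replicate 1 of day 7 and 53 and 2 without replicate 2 of day 7. An exact permutation test of 2 libraries against 2 could not go below p = 0.333 for a single gene, so significance rests on the fit across all genes.

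**Figure D1:**
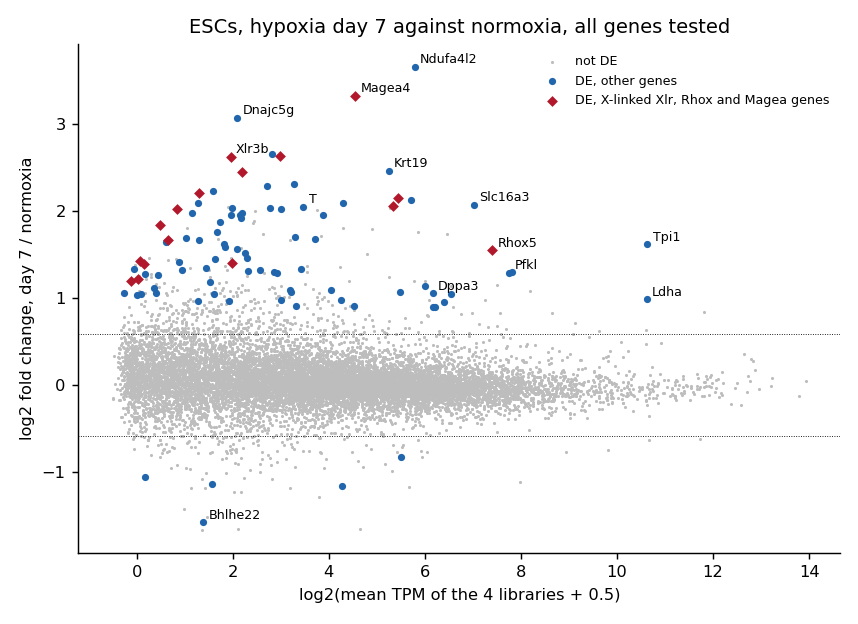
Log2 fold change of day 7 over normoxia (vertical axis) against the log2 of the mean TPM of the 4 libraries plus 0.5 (horizontal axis) for all 12271 genes tested. Grey points are not DE, blue points are DE, red diamonds are the DE genes of the X-linked Xlr, Rhox and Magea families, and dotted lines mark 1.5-fold. The 88 higher genes far outnumber the 5 lower ones, and the red diamonds lie above the upper dotted line.

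Most tested genes of the X-linked Xlr, Rhox and Mage families rose on day 7. The list of these reproductive genes had 22 X-linked members in the table, of which 12 passed the minimum level in the normoxic and day 2 libraries alone, so that their rise on day 7 did not decide their inclusion. Of these 12, 9 rose (Magea4, Xlr3a, Xlr3b, Xlr3c, Rhox1, Rhox2a, Rhox5, Rhox6 and Rhox9) and 0 fell, where 0.622% of the 12064 genes that passed in the same way rose. Their median log2 fold change was 2.11, against 0.02 over all genes tested. Rhox10, Rhox13 and Mageb16 were not DE. Mageb16 had 3.02 and 3.31 TPM in normoxia and 2.48 and 2.89 TPM on day 7 (log2 fold change -0.20). Both of its day 7 libraries thus lay below normoxia, and Magea4 was the only Mage gene of the 12 that rose. A further 7 members (Magea5, Magea8, Xlr4a, Xlr4b, Xlr4c, Xlr5b and Xlr5c) passed only through the day 7 libraries, where they were high. These 7 were DE too, which makes 16 of 19 tested, but they were included through their high day 7 level and add no support. Fthl17a, Mageb4 and Xlr5a stayed below the minimum in all conditions. With no minimum level, 15 members of the list were DE. The symbols of 4 more tested genes (Slx1b, Slx4, Slx4ip and Ssx2ip) matched the list by name only, lie on autosomes and had log2 fold changes between -0.12 and 0.11. The count of 16 was 7 without replicate 1 of normoxia, 5 without replicate 2 of normoxia, 7 without replicate 1 of day 7 and 14 without replicate 2 of day 7.

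Magea4, of the melanoma antigen family that is normally expressed in male germ cells (ENSMUSG00000033343, chrX:72222017-72222964, GRCm38), had 4.68 and 2.84 TPM in normoxia, 7.12 and 5.31 TPM on day 2 and 49.3 and 34.6 TPM on day 7. All 4 earlier libraries lay far below both day 7 libraries. The log2 fold change over normoxia was 3.33 (SE 0.27, adjusted p = 0.00295 from limma), the largest of any X-linked gene tested. Magea8 and Magea5, which neighbour each other in another region of the X chromosome, also rose. Magea8 was supported by 2 and 2 reads in normoxia and by 66 and 24 reads on day 7, and Magea5 by 4 and 4 reads and by 53 and 26 reads, so their fold changes rest on very few normoxic reads.

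The Xlr3, Xlr4 and Xlr5 genes encode nuclear proteins related to a synaptonemal complex component and lie together between positions 73074345 and 73292976 of the X chromosome. Xlr3a, Xlr3b and Xlr3c passed the minimum level without the day 7 libraries, and all 3 rose. Xlr3a had 2.35 and 1.18 TPM in normoxia, 1.91 and 1.63 TPM on day 2 and 13.6 and 12.5 TPM on day 7 (log2 fold change 2.63, SE 0.26, adjusted p = 0.00684). Xlr3b had 0.709 and 0.460 TPM in normoxia, 0.933 and 0.938 TPM on day 2 and 5.96 and 6.38 TPM on day 7 (log2 fold change 2.63, SE 0.20, adjusted p = 0.00295). In neither gene did a day 2 library come near a day 7 library. Xlr3c had a log2 fold change of 2.45. The 5 members that passed only through day 7 had log2 fold changes of 2.03 for Xlr4a, 1.85 for Xlr5c, 1.66 for Xlr4b and 1.39 for Xlr4c, and Xlr5b is given as reads. Xlr5b was supported by 2 and 2 reads in normoxia and by 48 and 20 reads on day 7. Because these genes are near-identical copies, the share of reads each one received is uncertain. Of 16 other tested genes within 500 kb of this cluster, 1 was DE (Pnma5, log2 fold change 2.13), and their median log2 fold change was 0.14. Over all genes tested, 0.758% were DE.

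Promoters of Xlr3a, Xlr3b and Magea4 are shown because these genes had the largest changes among the family members. Each runs from 250 bases before to 50 bases after the RefSeq start (GRCm38.p6), 5′ to 3′ on the gene's own strand, and capitals mark the HIF core motif, searched as ACGTG or GCGTG on both strands. The windows are chrX:73097046-73097345 (minus strand) for Xlr3a, chrX:73191929-73192228 (plus strand) for Xlr3b and chrX:72221767-72222066 (plus strand) for Magea4.
Xlr3a: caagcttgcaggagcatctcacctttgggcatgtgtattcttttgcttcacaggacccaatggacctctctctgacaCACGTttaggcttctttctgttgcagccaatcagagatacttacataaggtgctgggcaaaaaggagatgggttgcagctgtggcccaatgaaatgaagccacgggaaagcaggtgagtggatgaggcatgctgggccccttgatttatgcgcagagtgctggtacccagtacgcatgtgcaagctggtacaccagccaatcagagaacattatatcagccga
Xlr3b: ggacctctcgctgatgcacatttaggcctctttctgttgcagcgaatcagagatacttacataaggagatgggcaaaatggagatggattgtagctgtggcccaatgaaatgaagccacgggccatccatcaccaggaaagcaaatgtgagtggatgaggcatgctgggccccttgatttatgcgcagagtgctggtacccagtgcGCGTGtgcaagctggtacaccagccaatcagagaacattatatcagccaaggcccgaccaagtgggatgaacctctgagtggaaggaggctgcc
Magea4: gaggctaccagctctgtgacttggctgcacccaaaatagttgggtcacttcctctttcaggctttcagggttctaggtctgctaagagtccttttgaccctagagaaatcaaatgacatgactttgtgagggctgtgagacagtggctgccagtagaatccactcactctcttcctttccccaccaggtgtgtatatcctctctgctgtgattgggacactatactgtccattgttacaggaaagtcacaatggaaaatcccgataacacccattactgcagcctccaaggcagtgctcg
A local alignment of the Xlr3a and Xlr3b windows spanned 254 columns with 87.8% identical bases. They hold 5 and 7 CpG dinucleotides, and the Magea4 window holds 2. The Xlr3a and Xlr3b windows each hold 1 core motif, and the Magea4 window holds none of these letters.

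The Rhox genes encode homeobox factors of the testis, ovary and placenta and lie between positions 37213804 and 38129967 of the X chromosome. Of 7 tested, 5 rose, against 0.717% of all genes tested. Rhox5 had 90.6 and 79.9 TPM in normoxia, 87.5 and 88.3 TPM on day 2 and 240 and 261 TPM on day 7 (log2 fold change 1.55, SE 0.13, adjusted p = 0.00295 from limma). The 4 earlier libraries of Rhox5 spanned a narrow range and both day 7 libraries lay well above it. Rhox9 had 16 and 14.02 TPM in normoxia, 21.6 and 11.6 TPM on day 2 and 62.3 and 66.3 TPM on day 7 (log2 fold change 2.06, SE 0.25, adjusted p = 0.0199). Rhox2a and Rhox6 had log2 fold changes of 2.20 and 2.16, and Rhox1 of 1.40. Rhox10 and Rhox13, at the other end of the cluster, did not pass the test (log2 fold changes 0.43 and 0.26). Of 15 other tested genes within 500 kb, 1 was DE (Gm9, log2 fold change 2.66), against 0.758% of all genes tested. Their median log2 fold change was -0.0033.

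**Figure D2:**
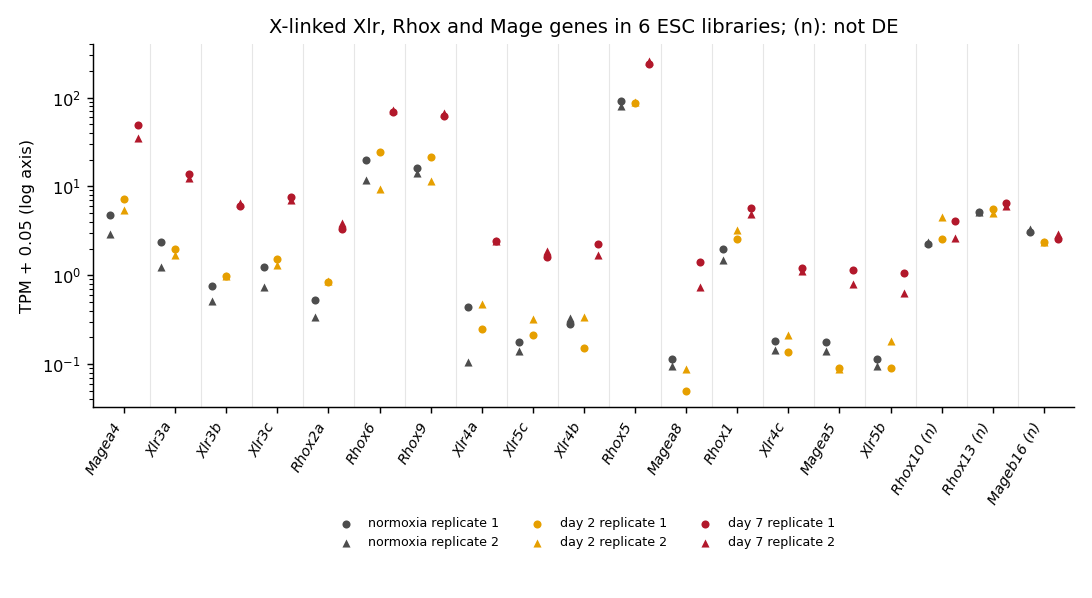
TPM plus 0.05 (log axis) of the 19 tested X-linked Xlr, Rhox and Mage genes in each of the 6 ESC libraries. Grey, orange and red stand for normoxia, day 2 and day 7, circles and triangles for replicates 1 and 2, and (n) marks genes that are not DE. In the 16 DE genes both red points lie above all grey and orange points.

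Day 7 was also tested directly against day 2. This contrast and the one against normoxia use the same day 7 libraries. Genes chosen as DE against normoxia therefore tend to differ from day 2 as well. Of the 93 DE genes, 20 also differed from day 2 by the same thresholds, where 0.179% of all genes tested did. This count was 6 without either normoxic library, 0 without either day 7 library, and 56 and 50 without replicate 1 and replicate 2 of day 2. On the X chromosome lay 13 of the 20, and they were all Xlr, Rhox or Magea genes. Of these, Magea5, Magea8, Xlr4a, Xlr4b, Xlr4c and Xlr5c passed the minimum level only through the day 7 libraries and add no support. The differences from day 2 were largest for Magea4 (log2 difference 2.65, adjusted p = 0.0131 from limma) and Xlr3a (2.58, adjusted p = 0.0131). The 7 autosomal genes were Dnajc5g, T, Tktl2, Acta2, Mgl2, Arntl2 and Nefm. Mgl2 too passed the minimum level only through the day 7 libraries and adds no support. In 62 of the 88 higher genes, day 2 had reached less than 50% of the log2 change of day 7, and in 26 it had reached 50% or more. The choice of genes by a high day 7 level favours the first of these groups.

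Few other X-linked genes changed. Of 438 X-linked genes tested, 21 were DE (4.79%), all higher and with the 7 above among them, against 66 higher and 5 lower genes of 11827 on autosomes (0.600%), and 1 higher gene of 6 on the Y chromosome. Outside the Xlr, Rhox and Mage families, 5 of 419 were DE (1.19%). They were Gm9, Pnma5, Usp26, Glod5 and 1700013H16Rik, named after their values were seen. Of these, 1700013H16Rik passed the minimum level only through the day 7 libraries as well and adds no support. Usp26, a deubiquitinase of the testis, had 1.01 and 1.20 TPM in normoxia and 6.16 and 5.30 TPM on day 7. The median log2 fold change was 0.04 over the X chromosome and 0.02 over the autosomes.

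Among autosomal genes with the smallest p, Dnajc5g, a co-chaperone of the testis (ENSMUSG00000053856, chr5:31106285-31112526, GRCm38), had 0.457 and 0.359 TPM in normoxia, 1.505 and 1.67 TPM on day 2 and 6.97 and 7.29 TPM on day 7. The libraries of the 3 conditions did not overlap, and day 2 lay between normoxia and day 7 (log2 fold change 3.07, SE 0.19, adjusted p = 0.00101 from limma). Tktl2, a transketolase-like gene, had 1.30 and 1.36 TPM in normoxia, 2.11 and 2.32 TPM on day 2 and 6.77 and 6.74 TPM on day 7 (log2 fold change 1.99, SE 0.18, adjusted p = 0.0042). S100a14, a calcium-binding protein of epithelia, rose by a log2 fold change of 2.24 and was supported by 4 and 4 reads in normoxia against 38 and 33 reads on day 7. Pdha2, the testis form of the pyruvate dehydrogenase E1α subunit, had 2.16 and 3.24 TPM in normoxia, 3.995 and 12.2 TPM on day 2 and 19.8 and 11.6 TPM on day 7 (log2 fold change 2.31, SE 0.45, adjusted p = 0.0969). In Pdha2, one day 2 library lay within the day 7 range and the other near normoxia.

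Of 22 listed glycolysis enzymes tested, 3 rose (Tpi1, Pfkl and Ldha) and 0 fell (13.6%, against 0.717% of all genes tested that rose). In 17 both day 7 libraries lay above both normoxic ones (77.3%, against 23.0% of all genes tested). The median log2 fold change was 0.55 on day 7 and 0.46 on day 2. Tpi1, the triose phosphate isomerase, had 775 and 764 TPM in normoxia, 1848 and 2687 TPM on day 2 and 2806 and 1997 TPM on day 7 (log2 fold change 1.62, SE 0.22, adjusted p = 0.0222 from limma). Pfkl, the liver form of phosphofructokinase, which catalyses the committed step of glycolysis, had 115 and 131 TPM in normoxia, 264 and 339 TPM on day 2 and 360 and 254 TPM on day 7 (log2 fold change 1.29, SE 0.19, adjusted p = 0.0404). Ldha, which turns pyruvate into lactate, had 1011 and 1080 TPM in normoxia, 1948 and 2362 TPM on day 2 and 2422 and 1767 TPM on day 7 (log2 fold change 0.99, SE 0.18, adjusted p = 0.0813). In all 3 genes, the hypoxic libraries of day 2 and day 7 overlapped each other and lay clear of normoxia.

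Of the glucose and lactate transporters, 1 of 7 rose (14.3%, against 0.717% of all genes tested). Slc16a3 encodes the lactate exporter MCT4 and had 49.3 and 48.3 TPM in normoxia, 117 and 195 TPM on day 2 and 245 and 175 TPM on day 7 (log2 fold change 2.08, SE 0.24, adjusted p = 0.0161 from limma). Slc2a1, the glucose importer GLUT1, had 117 and 104 TPM in normoxia and 289 and 208 TPM on day 7 and did not pass the test (log2 fold change 1.15, SE 0.24, adjusted p = 0.119). The mean log2 level of the 22 glycolysis enzymes relative to normoxia was 0.73 in replicate 1 of day 7 and 0.43 in replicate 2, and on day 2 it was 0.39 in replicate 1 and 0.74 in replicate 2. Without the day 2 libraries, 269 of all 12271 genes were called higher, against 88 in the main fit. With only the normoxic and day 7 libraries in the fit, 9 of the 22 enzymes rose, and without either normoxic library or without replicate 1 of day 7 the count was 0.

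The promoters of Slc16a3, Pfkl and Ldha are shown because these genes rose and hold the HIF core motif. Capitals mark ACGTG or GCGTG on either strand, and the windows (RefSeq, GRCm38.p6) are chr11:120948817-120949116 (plus strand), chr10:78009758-78010057 (minus strand) and chr7:46845554-46845853 (plus strand). The RefSeq start of the Ldha window lies 4329 bases from the start of the gene in the annotation used here.
Slc16a3: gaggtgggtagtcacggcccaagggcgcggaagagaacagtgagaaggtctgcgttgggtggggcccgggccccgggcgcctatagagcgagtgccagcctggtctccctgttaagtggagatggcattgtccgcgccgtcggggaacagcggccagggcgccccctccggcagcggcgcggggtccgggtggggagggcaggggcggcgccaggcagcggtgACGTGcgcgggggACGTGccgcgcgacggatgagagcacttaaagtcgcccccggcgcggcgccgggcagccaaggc
Pfkl: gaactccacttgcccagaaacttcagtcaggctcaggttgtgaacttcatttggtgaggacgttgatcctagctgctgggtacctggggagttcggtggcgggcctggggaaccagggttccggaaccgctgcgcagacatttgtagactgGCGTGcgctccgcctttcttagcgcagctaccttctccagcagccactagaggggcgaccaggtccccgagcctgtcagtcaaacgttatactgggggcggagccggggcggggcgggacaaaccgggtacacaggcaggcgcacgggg
Ldha: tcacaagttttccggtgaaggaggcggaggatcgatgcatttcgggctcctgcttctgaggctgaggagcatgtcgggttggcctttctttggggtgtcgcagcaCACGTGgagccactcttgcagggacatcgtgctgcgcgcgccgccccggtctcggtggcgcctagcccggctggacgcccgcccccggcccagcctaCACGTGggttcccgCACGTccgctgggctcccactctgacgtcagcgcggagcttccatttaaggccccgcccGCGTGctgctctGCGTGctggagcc
The Tpi1 window held no such letters, which says nothing of sites elsewhere. Of the DE genes on the glycolysis and transporter lists, 3 of 4 held the core in this window. Of all 9367 tested genes with a RefSeq promoter within 5000 bases of the annotated start, 64.15% held it, so its presence is common. Of the 65 higher genes with such a promoter, 28 held it (43.08%), and of the 13 X-linked family members, 6. The higher genes had fewer CpG dinucleotides in the window, with a median of 8 against 21 over all genes, and 7 in the X-linked families. CACGTG, which contains the core, was held by 10.44% of all promoters, 6.15% of those of the higher genes and 0 of the 13 in the X-linked families. TCCCGC was held by 37.25%, 21.54% and 0 of the 13 in the same order.

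The HIF targets outside glycolysis gave 0 DE genes of 26 tested in limma, although 17 had both day 7 libraries above both normoxic ones (65.4%, against 23.0% of all genes tested). The median log2 fold change was 0.41, and it was 0.19 without replicate 1 of day 7. An unadjusted p under 0.05 was reached by 9 of the 26, against 8.04% of all genes tested, and voom on recovered reads called 0. Bhlhe40, a transcriptional repressor of the clock and hypoxia pathways, had 12.4 and 12.6 TPM in normoxia, 33.1 and 97.7 TPM on day 2 and 100.5 and 28.0 TPM on day 7 (log2 fold change 2.04, SE 0.59, adjusted p = 0.326). Bnip3, a mitophagy receptor, had 11.96 and 12.7 TPM in normoxia, 29.0 and 74.9 TPM on day 2 and 61.3 and 31.2 TPM on day 7 (log2 fold change 1.79, SE 0.42, adjusted p = 0.176). Egln3, a HIF prolyl hydroxylase that is itself a HIF target, had 4.18 and 5.18 TPM in normoxia, 12.5 and 31.6 TPM on day 2 and 28.3 and 14.6 TPM on day 7 (log2 fold change 2.02, SE 0.42, adjusted p = 0.12). In these genes every hypoxic library lay above normoxia, with the highest values in replicate 2 of day 2 and replicate 1 of day 7. Averaged over the 26 targets, the log2 level relative to normoxia was 0.33 and 0.84 on day 2 and 0.79 and 0.31 on day 7. In the fit to the normoxic and day 7 libraries alone, 5 of the 26 rose, where 269 of all 12271 genes did.

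Hif1a itself had 41.1 and 39.5 TPM in normoxia and 29.5 and 33.9 TPM on day 7 and did not pass the test (log2 fold change -0.34, SE 0.14, adjusted p = 0.554), and of the 12 HIF subunits and oxygen sensors tested 0 were DE, 5 had an unadjusted p under 0.05 and voom called 0. The largest rise of any gene was that of Ndufa4l2, a respiratory chain subunit of the hypoxic state, with 9.71 and 5.03 TPM in normoxia, 41.5 and 217 TPM on day 2 and 141 and 63.1 TPM on day 7 (log2 fold change 3.66, SE 0.68, adjusted p = 0.0813 from limma). It showed the same exchange of high and low replicates between the days. Its normoxic counterpart Ndufa4 had 156 and 200 TPM in normoxia and 156 and 156 TPM on day 7. Of the genes for secreted factors, 1 of 14 rose (Igfbp3, log2 fold change 1.14), and of the collagen hydroxylases and crosslinkers, 1 of 10 (Loxl4, log2 fold change 1.42). These shares were 7.14% and 10%, against 0.717% of all genes tested. P4ha1, a collagen prolyl hydroxylase, did not pass (log2 fold change 1.67, adjusted p = 0.119).

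**Figure D3:**
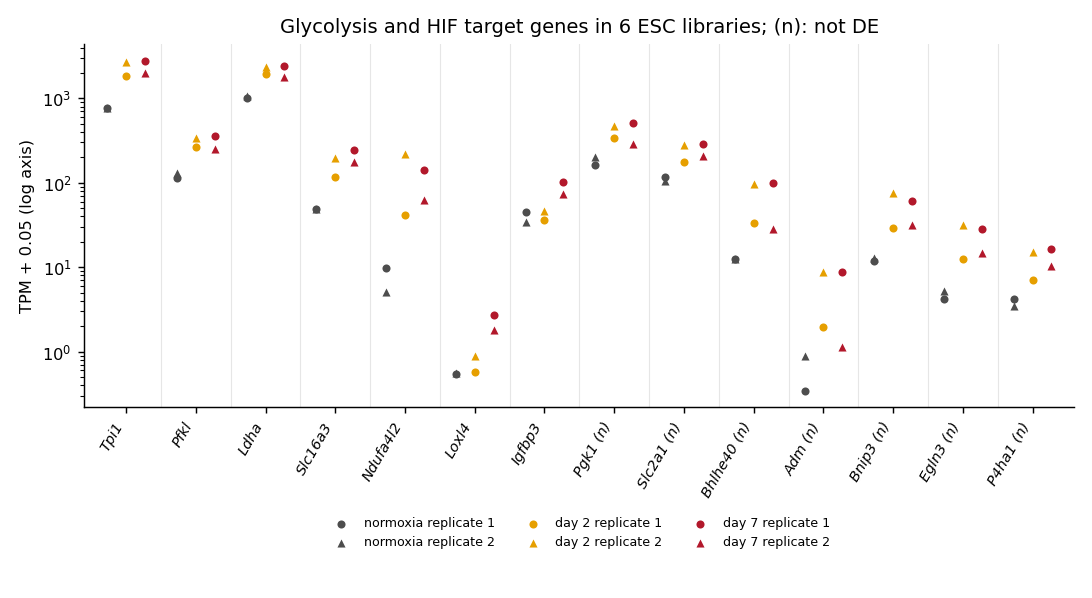
TPM plus 0.05 (log axis) of 14 glycolysis, transport and HIF target genes in each of the 6 ESC libraries, with colours and symbols for condition and replicate as in the legend and (n) for genes that are not DE. In Bhlhe40, Adm, Bnip3 and Egln3, replicate 1 lies above replicate 2 on day 7 and below it on day 2.

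Genes of the primitive streak and early mesoderm gave 5 DE genes of 23 tested, all higher (21.7%, against 0.717% of all genes tested that rose). The 5 include Wnt3, which passed the minimum level only through the day 7 libraries and adds no support. The median log2 change of the list was 0.39 on day 7 and 0.20 on day 2. T had 4.16 and 3.45 TPM in normoxia, 4.17 and 5.80 TPM on day 2 and 19.0 and 15.8 TPM on day 7, so the day 2 libraries lay near normoxia. The difference between day 7 and day 2 was 1.72 on the log2 scale (SE 0.21, adjusted p = 0.0332 from limma). Nkx1-2, a homeobox gene of the posterior epiblast and streak, had 0.333 and 0.519 TPM in normoxia, 1.42 and 1.02 TPM on day 2 and 3.62 and 3.29 TPM on day 7 (log2 fold change 2.10, SE 0.21, adjusted p = 0.00714). Hand1, a factor of lateral and extra-embryonic mesoderm and of trophoblast, had 2.16 and 2.07 TPM in normoxia, 3.57 and 5.64 TPM on day 2 and 12.7 and 8.32 TPM on day 7 (log2 fold change 2.04, SE 0.26, adjusted p = 0.0222). These 2 genes had intermediate levels on day 2, with no overlap with either condition. Fgf8, the growth factor of the streak, rose with a log2 fold change of 1.59 (adjusted p = 0.0803). Not all members of the list rose. Log2 fold changes were above 0 in 16 of the 23 genes and below 0 in 7. Both day 7 libraries lay above both normoxic ones in 11 genes and below them in 5. Among all genes tested, these shares were 23.0% and 17.5%. Evx1 had the lowest value and was not DE (log2 fold change -0.76, adjusted p = 0.529 from limma).

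Wnt3, the ligand that starts streak formation, was the only DE gene of 21 Wnt ligands and Frizzled receptors tested (4.76%, against 0.717% of all genes tested that rose). It had 0.304 and 0.307 TPM in normoxia, 0.354 and 0.521 TPM on day 2 and 1.48 and 1.03 TPM on day 7 (log2 fold change 1.11, SE 0.21, adjusted p = 0.0813 from limma). Wnt3 passed the minimum level only through the day 7 libraries, where it was high, so its share of this list adds no support. Wnt4 had 0.370 and 0.525 TPM in normoxia and 3.60 and 1.07 TPM on day 7 and did not pass (log2 fold change 1.43, SE 0.40, adjusted p = 0.295). Wnt7b had a log2 fold change of 0.97 (adjusted p = 0.355), and Wnt7a was below the minimum level. Eomes, a T-box factor of the streak and endoderm, had 7.96 and 9.69 TPM in normoxia and 15.4 and 16.2 TPM on day 7 (log2 fold change 0.81, SE 0.17, adjusted p = 0.121). Mixl1 had a log2 fold change of 1.18 (adjusted p = 0.269) and Lef1 of 0.75 (adjusted p = 0.563). Calls rose across all genes in the fit to the 4 libraries compared, with 269 of 12271 higher, against 88 in the main fit. Eomes, Mixl1, Lef1 and Wnt4 were DE when only the normoxic and day 7 libraries were fitted, where 10 of the 23 streak genes rose, and 0 of the 23 were DE without either normoxic library and 1 without replicate 1 of day 7.

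Of 14 genes of endoderm, node and notochord, 2 rose (14.3%, against 0.717% of all genes tested), and the median log2 fold change was 0.20. The list did not move one way. Foxa1 and Sox17, transcription factors of definitive endoderm, Spink1 and Chrd, picked out after their values were seen, lay below normoxia in both day 7 libraries, with log2 fold changes of -0.76 (adjusted p = 0.351 from limma), -0.63 (adjusted p = 0.554), -0.65 (adjusted p = 0.873) and -0.47 (adjusted p = 0.591). Krt19, a keratin of simple epithelia, had 14.1 and 8.05 TPM in normoxia, 14.9 and 39.0 TPM on day 2 and 82.1 and 45.7 TPM on day 7 (log2 fold change 2.47, SE 0.45, adjusted p = 0.0803 from limma). Krt7, another such keratin, had a log2 fold change of 1.67 (SE 0.32, adjusted p = 0.0892). Of 12 ectoderm and neural genes tested, 0 were DE in limma or voom and 2 had an unadjusted p under 0.05. Their median log2 fold change was -0.33, and it turned to 0.14 without replicate 1 of day 7. Sox3, a neural and epiblast factor, had 43.4 and 62.2 TPM in normoxia and 21.6 and 31.2 TPM on day 7 (log2 fold change -0.99, SE 0.31, adjusted p = 0.377).

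**Figure D4:**
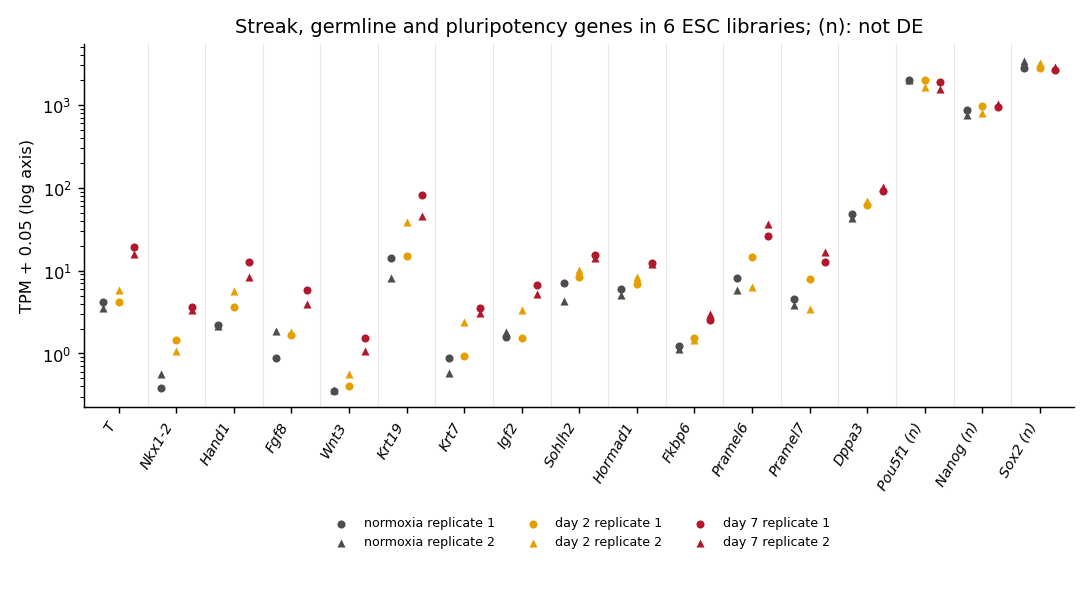
TPM plus 0.05 (log axis) of 17 genes of the streak, endoderm, germline and pluripotency in each of the 6 ESC libraries, with colours and symbols as in the legend and (n) for genes that are not DE. The pluripotency genes Pou5f1, Nanog and Sox2 at the right lie at similar levels in all 6 libraries, and T, Wnt3 and Fgf8 lie higher on day 7 than in the 4 other libraries.

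Of 29 other germline genes tested, 4 rose and 0 fell (13.8%, against 0.717% of all genes tested that rose), and the median log2 fold change was 0.22. The count was 0 when either normoxic library or either day 7 library was left out, and the median was 0.10 without replicate 2 of normoxia and 0.14 without replicate 1 of day 7. Sohlh2, a factor of early germ cell differentiation, had 6.98 and 4.29 TPM in normoxia, 8.34 and 10.1 TPM on day 2 and 15.3 and 14.04 TPM on day 7 (log2 fold change 1.34, SE 0.23, adjusted p = 0.0696 from limma). Hormad1, which acts at meiotic chromosome axes, had 6.01 and 5.07 TPM in normoxia, 6.81 and 8.399 TPM on day 2 and 12.2 and 12.01 TPM on day 7 (log2 fold change 1.07, SE 0.18, adjusted p = 0.0696). In both genes the day 2 libraries lay between normoxia and day 7. Fkbp6 and Tuba3a had log2 fold changes of 0.97 and 1.05. In 13 of the 29 both day 7 libraries lay above both normoxic ones (44.8%, against 23.0% of all genes tested). In 6 they lay below, against 17.5% of all genes tested. The lowest were Taf7l and Sycp1, which were not DE (log2 fold changes -0.65 and -0.60, adjusted p = 0.369 and 0.399 from limma). Ddx4, Dazl and Mael were picked out after their values were seen. Ddx4 and Dazl, defining genes of germ cells, did not pass the test, with log2 fold changes of -0.10 (adjusted p = 0.985) and 0.53 (adjusted p = 0.50), and Mael, of the piRNA pathway, had -0.49 (adjusted p = 0.496).

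Of 16 naive pluripotency factors, 1 was DE (6.25%, against 0.717% of all genes tested that rose). This was Dppa3 (Stella), a maternal and germ cell factor that protects DNA from Tet-mediated change in the zygote. It had 48.6 and 43.2 TPM in normoxia, 61.6 and 69.7 TPM on day 2 and 90.3 and 102 TPM on day 7 (log2 fold change 1.06, SE 0.14, adjusted p = 0.0222 from limma). Of 18 tested genes on a list named for the 2-cell stage, 2 rose (11.1%, against 0.717% of all genes tested). Pramel6 had 8.17 and 5.73 TPM in normoxia, 14.7 and 6.24 TPM on day 2 and 26.2 and 36.3 TPM on day 7 (log2 fold change 2.09, SE 0.36, adjusted p = 0.0693), and Pramel7, its neighbour in the genome, had a log2 fold change of 1.70. The median log2 fold change of the whole list was -0.06, with 6 members above 0 and 12 below. Pramel6 and Pramel7 were its only DE members, and no Zscan4 gene on it was DE. The list as a whole therefore did not rise, and whether Pramel6 and Pramel7 mark the 2-cell stage was not tested. Of 27 imprinted genes, Igf2 alone rose (3.70%, against 0.717% of all genes tested). It had 1.54 and 1.76 TPM in normoxia, 1.48 and 3.33 TPM on day 2 and 6.57 and 5.24 TPM on day 7 (log2 fold change 1.57, SE 0.30, adjusted p = 0.0926 from limma). Another annotated protein-coding gene shares 62.8% of the exon bases of Igf2 on the same strand, so its reads may be assigned to either.

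Core pluripotency genes (0 DE of 11, median log2 fold change -0.13), DNA methyltransferases and TET enzymes (0 of 9, median 0.01) and genes of DNA replication and mitosis (0 of 30, median 0.04) held no DE gene in limma. An unadjusted p under 0.05 was reached by 0, 0 and 1 of them. The same was true of 77 oxidative phosphorylation subunits (median -0.03), 77 mitochondrial ribosomal proteins (median -0.01) and 76 cytosolic ribosomal proteins (median -0.04), with 1, 1 and 0 genes at an unadjusted p under 0.05. In all 6 lists voom called 0. Dnmt3b had 231 and 238 TPM in normoxia and 223 and 220 TPM on day 7 (log2 fold change -0.08, SE 0.12, adjusted p = 0.979). Tet1 had 82.9 and 80.6 TPM in normoxia, 44.3 and 92.9 TPM on day 2 and 51.2 and 58.4 TPM on day 7 (log2 fold change -0.58, SE 0.29, adjusted p = 0.697). In Tet1, both day 7 libraries lay below normoxia while the day 2 pair straddled it. In all, 16 of the 47 gene lists held a DE member, and 40 of the 93 DE genes were in a list. In 15 of the 16 the count reached 0 when some single library was left out, the exception being the X-linked list, and the median of 25 of the 47 lists changed sign.

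**Figure D5:**
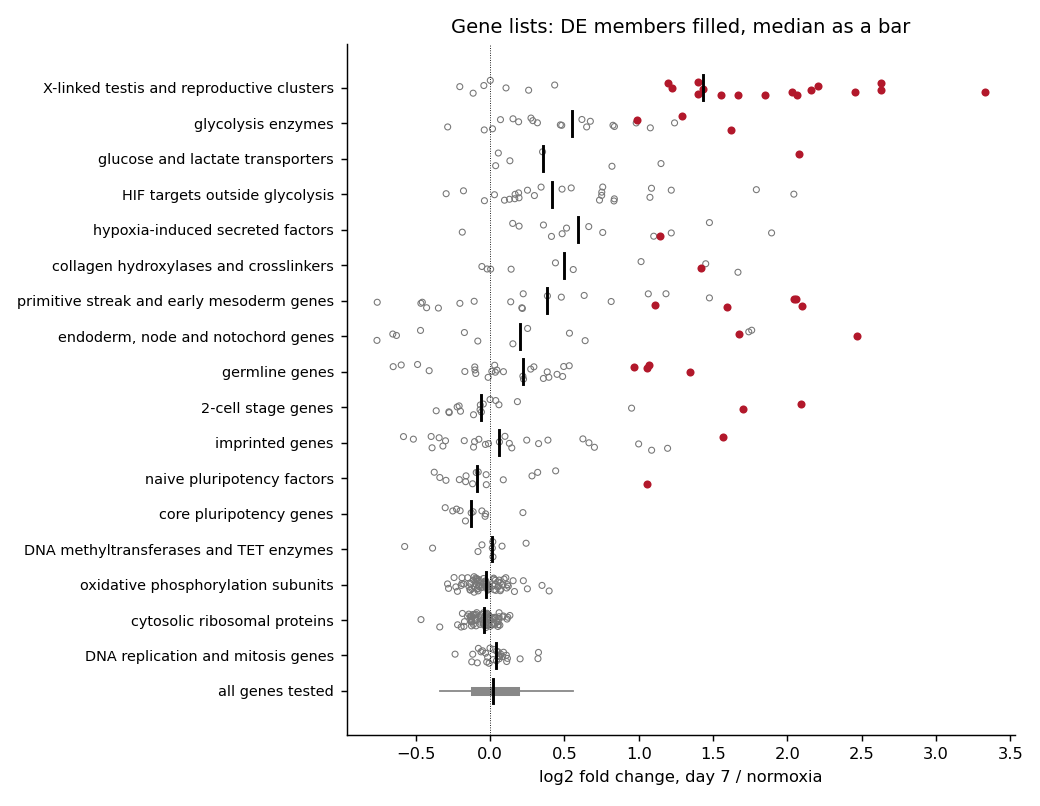
Log2 fold change of day 7 over normoxia of the tested members of 17 gene lists, 1 point a gene, with DE genes filled in red and the median as a black bar. In the bottom row, the thick and thin grey lines span the 25th to 75th and the 5th to 95th percentiles of all genes tested. The X-linked list includes the 4 autosomal genes matched by name and the 7 members that passed the minimum level only through day 7, and the lists of ribosomal and respiratory genes lie around 0.

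Among the 5 genes that fell, Bhlhe22, a factor of neurons and retina, had 3.03 and 3.83 TPM in normoxia, 2.20 and 1.27 TPM on day 2 and 0.754 and 0.867 TPM on day 7 (log2 fold change -1.58, SE 0.24, adjusted p = 0.0458 from limma). Ankrd34a had 25.9 and 26.4 TPM in normoxia, 21.5 and 24.5 TPM on day 2 and 13.3 and 9.79 TPM on day 7 (log2 fold change -1.17, SE 0.18, adjusted p = 0.0436). In both, the day 7 pair lay below all 4 other libraries. The other 3 were Kcns1 (log2 fold change -1.05), a potassium channel subunit, C030006K11Rik (-0.83) and Adam1a (-1.14). Adam1a shares 63.7% of its exon bases with another annotated gene on the same strand, and whole reads could not be recovered for it.

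Several DE genes are markers of other cell types. Of the 8 tested fibroblast markers, Col1a1 and Acta2 rose (25%, against 0.717% of all genes tested). Col1a1, a chain of collagen I, had 1.58 and 1.53 TPM in normoxia, 1.63 and 2.55 TPM on day 2 and 15.1 and 6.05 TPM on day 7 (log2 fold change 2.30, SE 0.37, adjusted p = 0.0544 from limma), and Acta2, smooth muscle actin, had a log2 fold change of 1.68. The summed level of the 9 fibroblast markers in the table was 44.2 and 37.3 TPM in normoxia and 77.9 and 64.0 TPM on day 7, and the defining markers Dcn, Lum, Postn and Twist2 were not listed among the genes of the table. Of the 12 tested trophoblast markers, Hand1 and Krt7 rose (16.7%, against 0.717% of all genes tested). The summed level of the 14 in the table was 136.1 and 126.3 TPM in normoxia and 196.3 and 202.1 TPM on day 7. Elf5 and Tpbpa were not listed. Of the 14 tested primitive endoderm markers 0 were DE in limma, 4 had an unadjusted p under 0.05 and voom called 2. Their summed level was 276.2 and 219.5 TPM in normoxia and 241.7 and 271.3 TPM on day 7. The part of such cells in the rise of Hand1, Krt7, Col1a1 and Acta2 was not tested. In bulk samples, more cells of a type and more RNA per cell cannot be told apart.

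Values of the 88 higher genes in the other cell types are given side by side with no test, since each table was normalized on its own. In TSCs 57 of them were in the table, and in 16 of these both day 7 libraries lay above both normoxic libraries, as they did in 9.08% of all genes of that table. In XEN cells 39 were in the table, and this held for 22 of them and for 17.8% of all genes.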

How the data were processed

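Bulk RNA-seq of ESCs was deposited by the authors as TPM per protein-coding gene, made with cutadapt 2.4, STAR 2.7.5a, StringTie 2.0.6, featureCounts and edgeR 3.26.8 on mm10, per the labels and the study's methods. Multiplying the deposited TPM by the span of each gene, introns included, gave whole reads within 0.05 for 98.69 to 98.81% of the values in a library, so TPM levels are not compared between genes. Low recovered counts were more often even (67% of values of 1 to 50 reads) than high ones (50.3% of values of 501 to 5000), so a read pair may count as 2. The strand setting of the counting is not given in the sources used here.

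From the deposited TPM, log2(TPM + 0.5) was fitted by limma 3.58.1 (R 4.3.3) with a mean-variance trend and 1 mean per condition, and p-values were adjusted by Benjamini-Hochberg over all 12271 genes. The p-values measure only the spread between these libraries. The gene lists, their members and the genes described were chosen with earlier results of these data known. Genes named were the DE genes with the largest changes (up to 12 in each direction), the 10 with the smallest p, all DE list members, up to 2 members of lists with fewer, and a set of pluripotency, lineage and oxygen-response genes. Promoters came from RefSeq (GRCm38.p6), and windows were aligned with Biopython 1.88. The fit was tested on simulated data. Alternatives were another pseudocount, filter, scaling, threshold, trend, set of libraries or length, a replicate block, and voom. Libraries with the same replicate number, each taken relative to the mean of its condition, correlated at 0.00948 (normoxia and day 2), -0.0911 (normoxia and day 7) and -0.224 (day 2 and day 7). With 2 libraries a condition, these values cannot settle whether the replicates were paired. Fold changes made by the authors were not used.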

Additional observations from a re-analysis of the deposited data

Results flagged for a closer look

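For 20 genes the change from normoxia on day 7 differed from that on day 2, by the limma contrast of day 7 against day 2 in the same fit with Benjamini-Hochberg adjustment over all genes tested. Both changes share the normoxic libraries, so the value given is the log2 difference between the days. On the X chromosome it was 2.65 for Magea4, 2.58 for Xlr3a, 2.21 for Xlr3b, 2.06 for Xlr3c, 1.99 for Rhox9, 1.83 for Xlr4a, 1.80 for Xlr4b, 1.63 for Rhox2a, 1.61 for Xlr5c, 1.53 for Magea8, 1.504 for Rhox5, 1.39 for Magea5 and 1.37 for Xlr4c. On autosomes it was 1.95 for Acta2, 1.87 for Dnajc5g, 1.72 for Mgl2, 1.72 for T, 1.42 for Tktl2, 1.36 for Nefm and 1.20 for Arntl2. In all 20 the day 7 level was the higher one. Magea5, Magea8, Xlr4a, Xlr4b, Xlr4c, Xlr5c and Mgl2 passed the minimum level only through the day 7 libraries, so their differences add no support.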

How the results depend on the processing

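All 93 DE genes kept their direction under every alternative in which they were tested. Some list medians did not: 25 of 47 changed sign when some library was left out, oxidative phosphorylation for example ranging from -0.10 to 0.036. The median of all genes, 0.02, was -0.0131 with median-ratio scaling and -0.028 without normoxia replicate 2. With all 6 libraries and no block, 88 genes were higher and 5 lower, and 20 also differed from day 2. Leaving out 1 library at a time gave 8 to 271 higher genes, 0 to 51 lower genes and 0 to 56 genes that also differed from day 2, where the lone sample of a condition is assumed to vary like the others. Without normoxia replicate 2 the 3 counts were 8, 0 and 6, and without day 2 replicate 1 they were 271, 51 and 56. With only the 4 libraries compared they were 269 higher and 51 lower, with all 93 among them. An adjusted p at or under 0.05 left 36, 2 and 13, and median-ratio scaling left 2 lower genes. With replicate number as a block, 18 genes were higher, 0 lower and 6 also differed from day 2, and with the day 7 numbers swapped, a pairing added after seeing the data, these counts were 199, 26 and 52. No germline or glycolysis list member was called with the block. Of the 93 genes, 17 were, 8 of them X-linked family members. Of the 19 X-linked family genes 16 were DE, and 5 to 16 when 1 library was left out. Dnajc5g, Magea4, Rhox5, Xlr3a, Xlr3b and Xlr3c were called under all 17 alternatives other than the swapped block. The cause of these shifts was not tested. With 2 libraries a condition, genes under a few reads in normoxia have imprecise fold changes.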

Other observations

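DE genes outside the gene lists, named here after their values were seen, included immune and interferon-response genes. Gbp2, an interferon-induced GTPase, had 2.86 and 2.17 TPM in normoxia, 4.16 and 8.28 TPM on day 2 and 17.0 and 7.93 TPM on day 7 (log2 fold change 2.02, SE 0.39, adjusted p = 0.0892 from limma). Psmb8, a subunit of the immunoproteasome, had 1.19 and 1.26 TPM in normoxia, 3.56 and 5.18 TPM on day 2 and 9.01 and 4.19 TPM on day 7 (log2 fold change 1.95, SE 0.32, adjusted p = 0.0602). In both genes 1 day 2 library lay above replicate 2 of day 7.

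Upp1, the uridine phosphorylase that releases ribose phosphate from uridine, had 121 and 134 TPM in normoxia, 263 and 342 TPM on day 2 and 360 and 278 TPM on day 7 (log2 fold change 1.30, SE 0.18, adjusted p = 0.0222 from limma). The heart muscle genes Actc1, an actin, and Myl7, a myosin light chain, also rose. Actc1 had 0.708 and 0.501 TPM in normoxia, 0.782 and 0.494 TPM on day 2 and 2.21 and 2.31 TPM on day 7 (log2 fold change 1.33, adjusted p = 0.0503), so that its day 2 libraries lay at the normoxic level. Myl7 had 12.1 and 12.7 TPM in normoxia, 21.7 and 23.4 TPM on day 2 and 24.2 and 25.5 TPM on day 7 (log2 fold change 0.98, adjusted p = 0.0354).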
